A study of Caenorhabditis elegans with 4 samples.

Results

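The 226 regions described here were called in the second of 2 chromatin immunoprecipitation sequencing (ChIP-seq) replicates for ELT-1 in Caenorhabditis elegans and not in the first. They are the rows of the replicate 2 list that overlap no replicate 1 region on the same chromosome by 1 bp or more. They make up 226 of the 470 replicate 2 regions (48.1%), and the other 244 overlap a replicate 1 region and are called shared regions below. Replicate 1 had 251 regions. Both ChIP samples came from hermaphrodites of strain OP354, which were kept at 20 °C until they were L2 larvae. These worms have the mutation unc119(ed3) and the transgene wgIs354. The transgene is a recombineered elt-1 with TY1, EGFP and FLAG tags together with an unc119 copy, and it was introduced by bombardment. Chromatin was crosslinked with 2% formaldehyde and precipitated through the EGFP tag with goat antibodies. Whole larvae were lysed, so a region cannot be placed in a cell type, and the protein precipitated is the tagged one of a single transgenic strain. The 2 input samples carry the same transgene and have no region list here.

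ELT-1 is a GATA-type transcription factor, a class of zinc finger protein that binds DNA at short sites around the letters GATA. In the worm embryo it is known for setting cells on the epidermal path, and in larvae for its part in the epidermis that makes the cuticle. Sites of a transcription factor can lie close together in the control regions of a gene, so that a ChIP-seq experiment may find several regions side by side, or a lone region far from any other. Regions near a shared region and regions far from one are therefore kept apart below.

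Every row of a list gives the region's edges and its q-value. The q-value is the authors' own PeakSeq value for that region, an error rate adjusted for the number of regions tested, and a smaller q-value ranks higher in the list. It is used here to rank regions within the replicate 2 list, and strength below means that rank or the −log10 of q. Members were chosen by comparing the replicate lists, there is 1 list per replicate, and regions of a library are not replicates of each other. All values below are therefore descriptions without a test. Intervals are 95% intervals for counting error and treat regions as independent, which neighbouring regions are not. No source used here says if only replicate 2 reads went into the replicate 2 list, so "called in replicate 2 only" refers to the lists and not to the libraries. Read depth is unknown for all lists, so a region missing from the replicate 1 list is not shown to be unbound there.

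The regions called in replicate 2 only lay in the lower part of the replicate 2 ranking. Their median −log10 q was 4.81 (quartiles 4.34 and 5.50), against 8.96 (6.36 and 12.9) for shared regions. Of the 117 highest-ranked replicate 2 regions 3 were members, and of ranks 118 to 235 there were 36. Ranks 236 to 352 held 82 members and ranks 353 to 470 held 105. The distributions overlapped at both ends. There were 3 members with a smaller q-value than the median shared region, and 16 shared regions with a larger q-value than the median member. The largest q-value in the replicate 1 list was 0.000112, and 3 members had a larger one, all at 0.000122. These are values of the contrast that chose the regions.

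**Figure D1:**
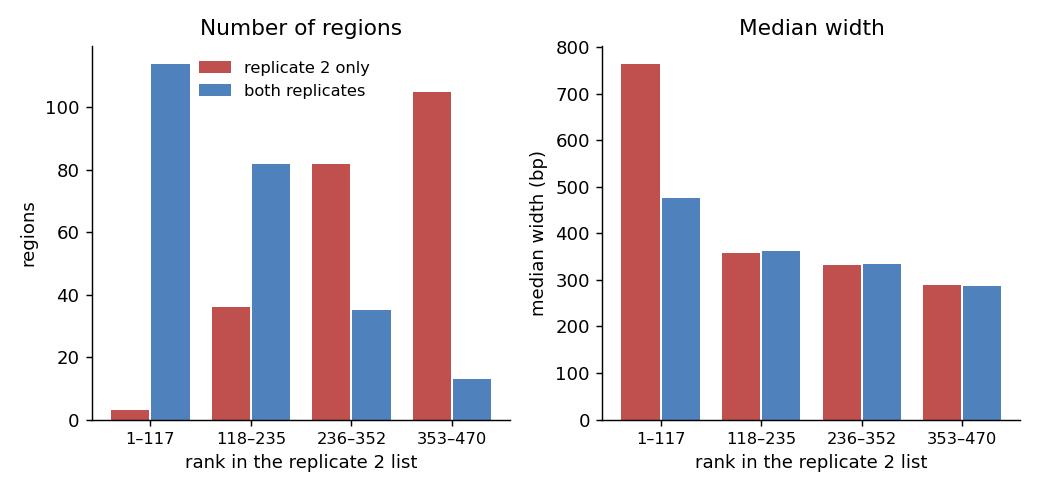
Replicate 2 regions by rank in their list (x axis, 4 parts by q-value), as the number of regions (left) and the median width in bp (right), for regions called in replicate 2 only (red) and in both replicates (blue). The number of members goes from 3 in the first part to 105 in the last, and in the last 3 parts the median widths of both kinds differ by at most 5 bp.

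The strongest member of each chromosome shows how far these regions reach up the list. On chromosome V, the region from 800373 to 801073 (WormBase WS180, as all positions here) had a q-value of 8.98e-12 and ranked 87 of 470, the highest of any member. It was 701 bp wide and lay 421 bp to the left of a shared region that ranked 6 and ran from 801495 to 802617. Next came the chromosome IV region from 3232670 to 3234124, at rank 103 with a q-value of 8.88e-11. It lay 135321 bp from the nearest shared region and 67002 bp from the nearest other member. The first was thus beside a strong shared region and the second far from any.

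On chromosome II the strongest member, from 6829019 to 6829782, had a q-value of 2.90e-10 and lay 3198 bp from a shared region. The q-value was 9.68e-09 for 2632990 to 2633392 on chromosome III, 2.34e-08 for 11605490 to 11606343 on X and 3.62e-08 for 9988809 to 9989089 on chromosome I. These 3 lay 339609, 120076 and 118415 bp from the nearest shared region. Chromosome V, which held 56 of all 226 members (24.8%), gave 6 of the 10 strongest members. Besides the first, they were the regions from 9274185 to 9274569 (q-value 3.56e-09), 596993 to 597295 (5.06e-09), 3865324 to 3865589 (1.15e-08), 4507664 to 4508483 (1.26e-08) and 6879265 to 6879752 (1.27e-08). Of these 5, only the region from 596993 to 597295 was near a shared region, at 560 bp.

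The members were narrow. Their median width was 310.5 bp (interval 294 to 336, quartiles 258 and 387), and together they covered 78.7 kb. Shared regions had a median width of 404 bp (interval 378 to 428, quartiles 327 and 537) and covered 124.1 kb. Fewer than 300 bp were spanned by 102 of 226 members (45.1%) and by 32 of 244 shared regions (13.1%). More than 500 bp were spanned by 26 members (11.5%) and 73 shared regions (29.9%).

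Width went with strength in both kinds of region, and at like rank the medians lay close together. Across regions, Spearman's rho between width and −log10 q was 0.32 over the 226 members and 0.57 over the 244 shared regions, all from the same library. Among ranks 118 to 235 the median width was 357.5 bp in 36 members and 362.5 bp in 82 shared regions. Among ranks 236 to 352 it was 332 bp in 82 members and 333 bp in 35 shared regions, and among ranks 353 to 470 it was 288 bp in 105 and 286 bp in 13. In the first 117 ranks the 3 members had a median of 764 bp and the 114 shared regions 475 bp, a value that rests on 3 regions. The difference of 310.5 against 404 bp over the whole list was thus not seen within the lower 3 parts of the ranking.

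**Figure D2:**
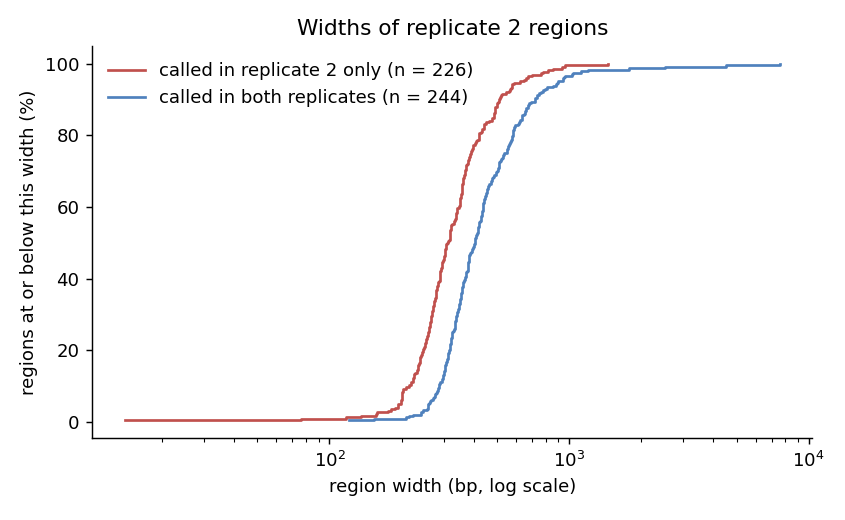
Cumulative distribution of region width (x axis in bp, log scale) for the 226 regions called in replicate 2 only (red) and the 244 called in both replicates (blue), with the percentage of regions at or below each width on the y axis. The red curve lies to the left of the blue one, with medians of 310.5 and 404 bp.

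The 5 widest members were of mixed strength. The widest, at 1455 bp, was the strong chromosome IV region already described, and it was the only member over 1000 bp, against 8 shared regions. The next 2 were on chromosome I and weak. The region from 1836380 to 1837338 spanned 959 bp with a q-value of 2.96e-05, and the region from 529541 to 530470 spanned 930 bp with 2.44e-05. The X region from 11605490 to 11606343 (854 bp) and the chromosome V region from 4507664 to 4508483 (820 bp) were both among the 10 strongest. At the other end, the chromosome V region from 4354527 to 4354540 spanned 14 bp, with a q-value of 7.83e-05. It was the narrowest region of the replicate 2 list, and the combined list gave it the same start and end. The next narrowest members spanned 76 and 117 bp. These 3 narrowest members were chosen after their values had been seen.

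The members were spread over all 6 chromosomes. Chromosome V held 56 (24.8%, interval 19.3 to 30.9), X 45 (19.9%, 14.9 to 25.7), II 41 (18.1%, 13.3 to 23.8), I 33 (14.6%, 10.3 to 19.9), IV 30 (13.3%, 9.14 to 18.4) and III 21 (9.29%, 5.84 to 13.9). Set against chromosome length, taken as the largest region end in any list, members ranged from 1.54 per Mb on III to 2.71 per Mb on V. Chromosome II had 2.69 per Mb, X 2.54, I 2.21 and IV 1.74. X thus had a density of members within the range of the autosomes.

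Shared regions had another order. X held 80 of 244 (32.8%, interval 26.9 to 39.1), or 4.52 per Mb, against 1.20 per Mb on chromosome I and 2.63 per Mb on II, the highest autosome. The share of a chromosome's replicate 2 regions that were members was 64.7% on I (33 of 51, interval 50.1 to 77.6), 60.9% on V (56 of 92, 50.1 to 70.9) and 50.6% on II (41 of 81, 39.3 to 61.9). It was 44.8% on IV (30 of 67, 32.6 to 57.4), 38.9% on III (21 of 54, 25.9 to 53.1) and 36.0% on X (45 of 125, 27.6 to 45.1), around the 48.1% of the whole list. The intervals of chromosomes I and V lay above that of X, and those of neighbours in this order overlapped. These 3 are the ends of an order of 6 chromosomes, and the intervals treat regions of a library as independent. The separation of their intervals is therefore no test. No test of this order was made.

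**Figure D3:**
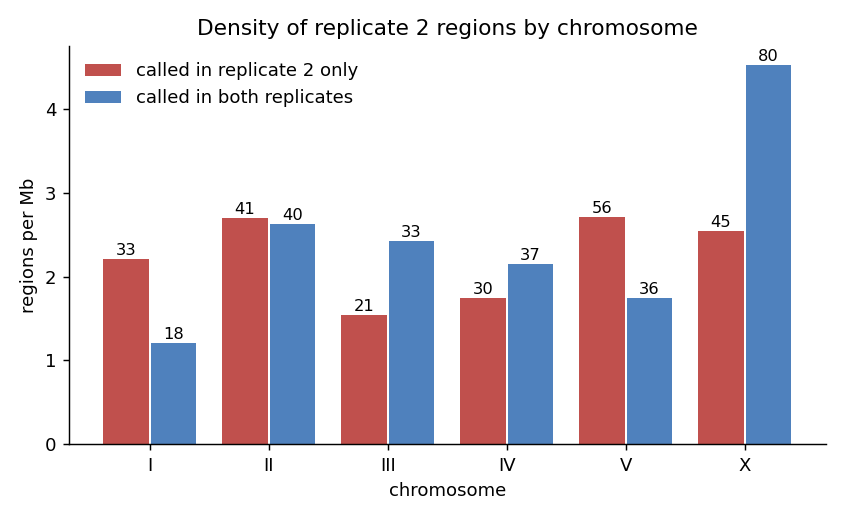
Replicate 2 regions per Mb (y axis) on each chromosome (x axis), for regions called in replicate 2 only (red) and in both replicates (blue), with the number of regions above each bar. On X the bars stand at 2.54 and 4.52 per Mb, and the red bar is the higher one on chromosomes I and V and, by 41 against 40 regions, on II.

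Strength and chromosome are not separate in these counts. Among ranks 118 to 235, X held 5 of 36 members (13.9%) and 24 of 82 shared regions (29.3%). Among ranks 236 to 352 it held 21 of 82 members (25.6%) and 10 of 35 shared regions (28.6%), and among ranks 353 to 470 it held 19 of 105 (18.1%) and 7 of 13 (53.8%). In the first 117 ranks, none of the 3 members and 39 of 114 shared regions were on X. In every part the share on X was lower among members, by an amount that varied between parts. The first part rests on 3 members and the last on 13 shared regions, and in ranks 236 to 352 the shares were close. Over ranks 1 to 235, chromosome V gave 13 of the 39 members and 29 of the 196 shared regions. The other chromosomes gave 5 or 6 members each, while their shared regions ranged from 18 on I to 63 on X.

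Along the chromosomes, 74 members had their centre in the left of 3 equal parts, 85 in the middle (37.6%, interval 31.3 to 44.3) and 67 in the right. Shared regions had 64, 101 and 79 in the same order. On chromosome V the middle held 24 of 56 members and 11 of 36 shared regions. On chromosome I it held 8 of 33 members and 9 of 18 shared regions.

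Most members were far from any shared region. The median distance to the nearest shared region, from edge to edge, was 121091 bp (interval 99295 to 152055), with quartiles of 16580 and 273923 bp. Members within 2000 bp of a shared region, called satellites here, numbered 30 of 226 (13.3%, interval 9.14 to 18.4). A further 23 (10.2%, 6.56 to 14.9) lay between that limit and 10000 bp. The other 173 (76.5%, interval 70.5 to 81.9) lay farther away and are called isolated, and 127 of them were over 100000 bp away.

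For scale, shared regions were measured to the nearest other shared region. The median was 59355 bp (interval 35626 to 90994), 33 of 244 (13.5%, interval 9.50 to 18.5) had another within 2000 bp, and 163 (66.8%, 60.5 to 72.7) had none within 10000 bp. The share within 2000 bp was thus close in both kinds, at 13.3% and 13.5%. From that limit to 10000 bp there were 23 members (10.2%) and 48 shared regions (19.7%, interval 14.9 to 25.2). At like rank the difference beyond 10000 bp changed direction. Among ranks 118 to 235 the share was 83.3% of 36 members and 68.3% of 82 shared regions. Among ranks 236 to 352 it was 75.6% of 82 and 74.3% of 35, with medians of 100748 and 160677 bp. Among ranks 353 to 470 it was 76.2% of 105 and 92.3% of 13, and in the first 117 ranks 33.3% of 3 and 60.5% of 114. Members are measured to 244 regions and shared regions to 243 others, and X, where shared regions are dense, holds a larger part of the shared set. By chromosome, the median distance was lower in members on I (143300 against 201902 bp) and III (37241 against 102421 bp). It was higher in members on II (122105 against 16509 bp), IV (128301 against 52788 bp) and V (158138 against 112335 bp). On X the medians were 51965 bp in members and 47877 bp in shared regions.

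**Figure D4:**
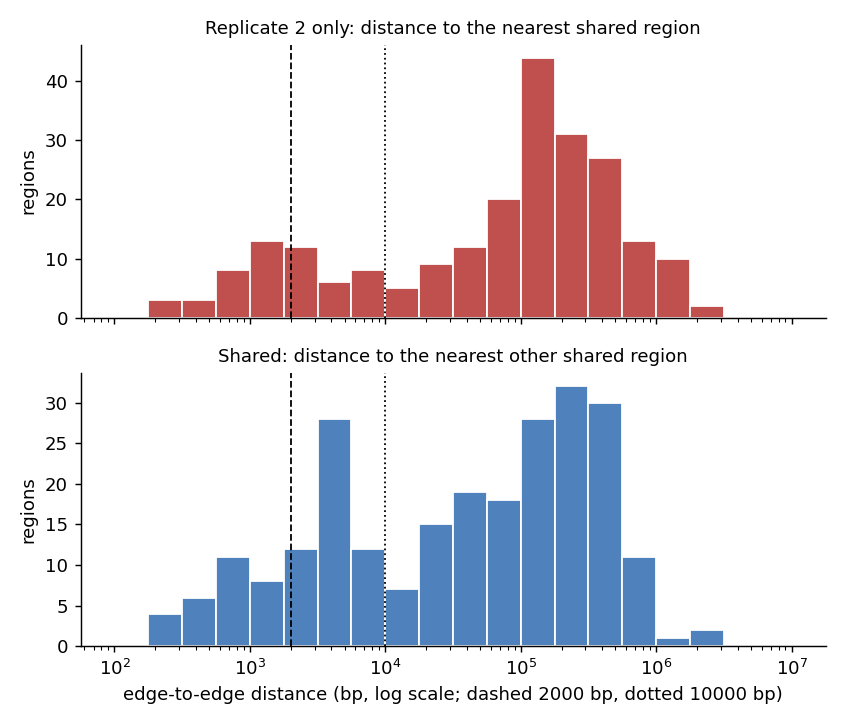
Histograms of the edge-to-edge distance (x axis in bp, log scale) from each of the 226 members to the nearest shared region (upper panel) and from each of the 244 shared regions to the nearest other shared region (lower panel), with the number of regions on the y axis. Dashed and dotted lines mark 2000 and 10000 bp, which leave 30 and 33 regions to the left of the dashed line and 173 and 163 to the right of the dotted one.

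Satellites and isolated members had close medians of width and strength, with overlapping intervals. The median width was 304.5 bp (interval 274 to 358) in the 30 satellites, 359 bp (302 to 443) in the 23 at intermediate distance and 304 bp (289 to 331) in the 173 isolated members. The median −log10 q was 4.77 (interval 4.44 to 5.35), 4.83 (4.59 to 5.11) and 4.80 (4.62 to 4.91) in the same order. Across the 226 members, Spearman's rho between distance and −log10 q was -0.10, and between distance and width it was 0.02.

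**Figure D5:**
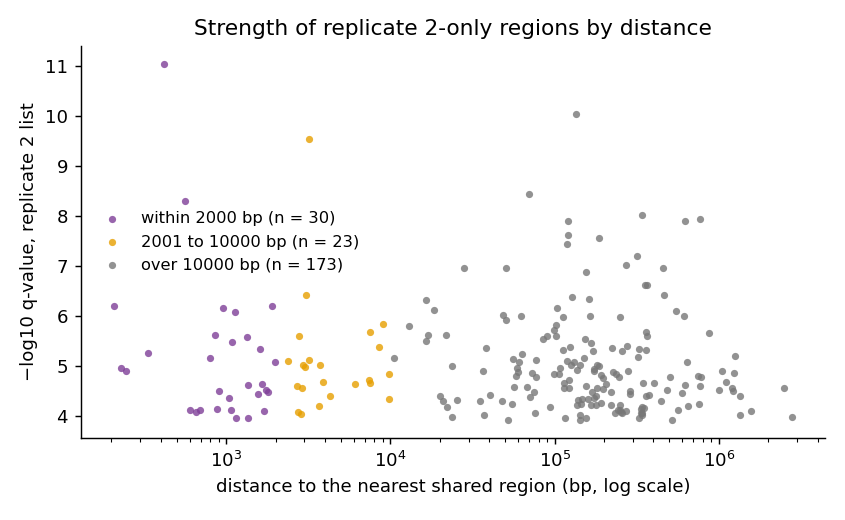
Strength of each of the 226 members as −log10 q in the replicate 2 list (y axis) against the distance to the nearest shared region (x axis in bp, log scale), coloured by distance class. All 3 classes have points from about 4 upward, and the 3 strongest members lie 421, 135321 and 3198 bp from a shared region.

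The satellites sat beside 27 shared regions, 11.1% of all shared regions, of which 24 had a single satellite and 3 had a pair. Of the 30 satellites, 17 lay on the left of their shared region and 13 on the right. Their median distance was 1055 bp (lowest 209, highest 1972). The 27 shared regions with a satellite had a median −log10 q of 8.38 (interval 6.31 to 11.2) and a median width of 441 bp (324 to 556). The 217 without a satellite had 9.05 (8.08 to 9.82) and 404 bp (377 to 426). Of the 27, 4 ranked within the first 50 of the list, all of which were shared regions. The median rank was 135 for the 27 and 125 for the 217 without a satellite.

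Over the whole list members had larger q-values than shared regions, with a median −log10 q of 4.81 against 8.96. They were also narrower, at a median of 310.5 against 404 bp. The larger q-values belong to the contrast that chose the members, so the counts below describe no trait particular to satellites. In 28 of 30 cases the satellite had the larger q-value, and in 25 it was the narrower one. Both exceptions in q-value were the members nearest to a shared region. On chromosome II, the member from 13292875 to 13293232 lay 209 bp from a shared region and had a q-value of 6.40e-07, against 6.73e-06 for that neighbour. On X, the member from 10302424 to 10302678 lay 230 bp away with 1.09e-05, against 2.30e-05. The next nearest were the chromosome V region from 1617909 to 1618182 at 247 bp and the X region from 6668493 to 6668700 at 334 bp, followed by the strongest member at 421 bp. The smallest gap between any replicate 2 regions was 209 bp, so this list holds no closer neighbours.

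The 3 shared regions with a pair of satellites had 1 on each side. On chromosome V, the shared region from 597856 to 598405 (q-value 6.80e-11) had the member from 596993 to 597295 on its left, at 560 bp, and the member from 599539 to 599926 on its right, at 1133 bp, with q-values of 5.06e-09 and 8.22e-07. On chromosome III, the shared region from 1924966 to 1925643 (q-value 3.42e-14) had members at 855 bp and 801 bp, with q-values of 2.44e-06 and 6.91e-06. Also on chromosome III, the shared region from 7300080 to 7300607 (q-value 8.10e-12) had members at 1698 bp and 1091 bp, with 7.81e-05 and 3.28e-06. In each of these 3 trios the shared region in the middle had the smallest q-value. This order is also that of shared regions and members over the whole list, so it is no trait of the trios. Chromosome III had 7 satellites among its 21 members (33.3%), while the other chromosomes ranged from 3 of 41 (7.32%) on II to 5 of 30 (16.7%) on IV. The chromosome III share is the highest of 6 and rests on 7 regions that include both of its pairs. It was not tested against the 13.3% of all members.

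The farthest members lay in long stretches without a shared region. More than 1000000 bp separated 12 of 226 members (5.31%) from any shared region, and 3 of 244 shared regions (1.23%) from any other. All 12 members were outside the middle of the 3 equal parts of their chromosome. That middle part held 85 of all 226 members (37.6%) and 101 of the 244 shared regions (41.4%), the most of the 3 parts for both. Whether the position of the 12 differs from that of other members was not tested. On chromosome II the first shared region started at 2800790, and 4 members lay to its left. Those from 24494 to 24854, 301119 to 301476 and 1237975 to 1238177 were 2775935, 2499313 and 1562612 bp away, the 3 largest distances. The next were the chromosome I region from 4322762 to 4323019 at 1354756 bp, which had shared regions on both sides, and the chromosome IV region from 560879 to 561357 at 1349770 bp. On chromosome IV, too, 4 members lay to the left of the first shared region, at 1911128. These 5 farthest members were weak, with q-values between 2.70e-05 and 0.000107.

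Some members occurred near each other, in smaller shares than shared regions did, though the intervals overlapped. Another member lay within 2000 bp of 21 members (9.29%, interval 5.84 to 13.9) and within 10000 bp of 49 (21.7%, 16.5 to 27.6). Another shared region lay within 2000 bp of 33 of 244 shared regions (13.5%, interval 9.50 to 18.5). Within 10000 bp it was 81 (33.2%, 27.3 to 39.5). The sets differ in size, with 226 members and 244 shared regions, and X held 19.9% of the members and 32.8% of the shared regions. Joining all replicate 2 regions within 10000 bp of each other gave 356 loci. Of the 226 members, 147 (65.0%, interval 58.4 to 71.2) were alone in their locus, 53 were in 40 loci with at least 1 shared region, and 26 were in 12 groups made of members only. Chromosome V, with 24.8% of all members, had 6 of those 12 groups, with 13 members. Chromosome III, with 9.29% of all members, had none. Of the 244 shared regions, 136 were alone in their locus.

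The member-only groups had 2 regions each, except for 2 groups of 3. On chromosome IV the members from 5758711 to 5758989, 5760223 to 5760420 and 5762378 to 5762650 stood within 3940 bp, with q-values of 9.38e-06, 4.11e-06 and 2.79e-05. The nearest shared region was 122515 bp from the closest of them. On chromosome V the members from 8039109 to 8039623, 8043514 to 8043975 and 8044915 to 8045343 stood within 6235 bp, with q-values of 7.04e-05, 2.44e-07 and 4.03e-05, and the nearest shared region was 352511 bp away. The only locus with 3 members and shared regions was on chromosome I from 12438596 to 12453402, where a shared region stood at each end and 3 members between them.

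No replicate 2 region stood near the limit of 1 bp that separates members from shared regions. The members closest to a replicate 1 region were 239, 258, 345, 562 and 605 bp away, and only 3 lay within 500 bp of one. The first 3 and the fifth were the members from 10302424 to 10302678 on X, 13292875 to 13293232 on II, 1617909 to 1618182 on V and 8578394 to 8578587 on III, and the fourth was the strong chromosome V region from 596993 to 597295. On the other side, the shared regions with the least overlap shared 85, 153, 176, 199 and 200 bp with replicate 1. They were on IV from 7488035 to 7488155, on V from 14055157 to 14055309, on II from 3486745 to 3486959, and on X from 11137688 to 11137929 and from 11478813 to 11479164. Overlap in bp is limited by width, and the V region, 153 bp wide, lay wholly within a replicate 1 region.

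The combined list, which the rule did not use, held 224 of the 226 members (99.1%, interval 96.8 to 99.9) and 243 of the 244 shared regions (99.6%, 97.7 to 99.99). It nearly repeats the replicate 2 list, with 470 regions in both, the same smallest gap of 209 bp between regions and mostly equal q-values. No source used here says how it was made, and it is no independent evidence for the members. Both edges coincided exactly for 170 members (75.2%, interval 69.1 to 80.7), against 171 of 244 shared regions (70.1%, 63.9 to 75.8). The q-value was equal for 195 of the 224 members (87.1%), lower in the combined list for 17 and higher for 12. Of the 243 shared regions it was equal for 206 (84.8%), lower for 17 and higher for 20. None of the combined regions at the 224 members reached a replicate 1 region, so no member was joined to a shared site there.

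In the 29 members whose q-value differed, it differed by a median of 0.24 in −log10 q. The chromosome IV member from 9232468 to 9232711 changed most, from 2.66e-05 to 1.75e-06, and was 244 bp wide in replicate 2 and 470 bp in the combined list. The X member from 9408613 to 9409394 went the other way, from 8.02e-06 to 5.51e-05, and from 782 to 415 bp. Both members absent from the combined list were weak and on X, from 3127676 to 3128044 (q-value 6.02e-05) and from 3163995 to 3164188 (8.82e-05), 35950 bp apart and at least 220120 bp from any shared region. These 4 regions were chosen after their values had been seen.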

How the data were processed

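The data are 3 lists of ELT-1 regions, for ChIP replicates 1 and 2 and a combined list, grouped by sample titles and source names. The description field contradicts these: it reads as input for the ChIP samples and names the antibody for the inputs, and it was not used. Regions were called with PeakSeq on WormBase WS180, per the file headers. The deposited q-value of each region is the authors' own. PeakSeq version, aligner, read filters, control, threshold and depth are not stated in any label or header used here. Lists were joined by chromosome, and distances count the bases between region edges. Shares have Clopper-Pearson intervals and medians exact order-statistic intervals (95%). Chromosome length is the largest region end in any list. The functions were tested on 50 simulated pairs of lists. The named regions are the 10 strongest, 5 widest, 5 nearest and 5 farthest members, the strongest per chromosome, those next to the 1 bp limit, pairs of satellites and member-only groups of 3 or more. Members and rules were chosen with earlier results of these data known. Genes, motifs and sequence were not analysed here, because the gene table is on WBcel235. Computation used Python 3.11.15, NumPy 2.4.6, pandas 2.3.3, SciPy 1.17.1 and Matplotlib 3.10.9.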

Additional observations from a re-analysis of the deposited data

How the results depend on the processing

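Of 64 alternatives over 9 results, 50 left the value within its 95% interval, or for the number of members within 1.5 times, and 14 did not. Some of the 50 could move little. Members more than 500 bp from any replicate 1 region numbered 223, and the combined list used for distances nearly repeats the replicate 2 list. The count of 50 is therefore no measure of how firm the values are. The stronger 50% of the replicate 2 list left 39 members, with a median width of 371 bp, 12.8% on X, 48.7% in the middle of 3 equal parts, 5.13% with another member within 2000 bp and 100% in the combined list. It keeps fewer regions by construction. Autosomes only also gave 100% in the combined list, since both missing members are on X. The share of satellites was 2.21%, 6.19% and 19.9% for limits of 500, 1000 and 5000 bp, that of isolated members 67.3% for 50000 bp, and that of members near another 3.54% and 21.7% for 1000 and 10000 bp, all set by the limit. Asking for the same start and end in the combined list gave 75.2%. A reciprocal overlap of 50% gave 237 members and centres within 200 bp gave 233. No paired analysis was possible because there is 1 list per ChIP replicate and no list for the inputs. Leaving out a replicate gives no value, since the rule needs both lists. Unknown read depth limits every statement about regions missing from replicate 1.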

Other observations

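Replicate 1 had 6 regions of its own that overlap no replicate 2 region. For 9 of the 226 members (3.98%, interval 1.84 to 7.42) the nearest replicate 1 region was such a region, and the closest of these 9 lay 175463 bp away, on chromosome III from 7622763 to 7623254. Beyond the outermost shared region of their chromosome lay 13 members, 10 to the left and 3 to the right, and none of the 13 was on X.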
